A study of Mus musculus with 816 samples.

Results

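MHC class I molecules carry peptides from proteins made inside a cell to its surface, where CD8 T cells read them. The genes described here are 10 members of that pathway, listed by name, though with earlier results of these data known. They are the heavy chains H2-K1 and H2-D1, their light chain B2m, the peptide transporter subunits Tap1 and Tap2, the loading chaperone Tapbp (tapasin), the transactivator Nlrc5, and the inducible proteasome subunits Psmb8, Psmb9 and Psmb10. All 10 were listed among the 45581 genes of the culture table and among the 29858 genes of the mouse table. Messenger RNA was measured by sequencing from transcript 3′ ends in 784 microglial cultures and in microglia from 32 mice. Each value is in CPM, the reads of a gene as a share of the mapped reads of its library.

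The cultures were commercial primary microglia from newborn mice, of a strain not given in the sources used here, plated in multiwell plates and given a stimulus in fresh medium 4 days after plating, in 98 combinations of stimulus and time. Untreated wells were harvested at 24 h (n = 40) and at 72 h (n = 25). The stimuli used most below were IFNa (0.0008 µg/µl), IFNb and IFNg (0.0001 µg/µl each), the double-stranded RNA mimic poly(I:C), labelled IC and here called PolyIC (0.2 µg/µl), lipopolysaccharide at a high dose, LPS_hi (0.0001 µg/µl), and at a low dose, LPS_lo (0.00001 µg/µl), the TLR2 ligand P3C (0.001 µg/µl) and TNFa (0.000004 µg/µl). For the LPS mice, microglia were taken from female C57BL/6 mice aged 2 months, 4 h after an intraperitoneal injection of LPS at 2 mg/kg (n = 4) or of PBS (n = 4). The aging mice were naive male C57BL/6 mice of 2 months (n = 11) or 22 months (n = 13), with no agent and no transgene, and all mouse cells were selected with magnetic beads against CD11b, a marker that other myeloid cells also carry. The wells came from only 3 lots of cells on 10 plates, so p-values for cultures describe the spread between wells. All 72 h wells came from 1 of these lots.

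Depth ran from 1 to 38.2 M (mega) mapped reads per culture (median 4.67) and from 2.36 to 7.78 M per mouse (median 4.08). The microglial markers Tmem119 (median 6.94 CPM), P2ry12 (2.13) and Sall1 (0.479) were close to absent from the cultures, where 41, 173 and 279 of the 784 cultures had none. The mice had medians of 4643, 555 and 189 CPM for the same genes. Reads from near-identical class I genes may have been split between them: 10.2% of the 50-base stretches near the H2-K1 3′ end and 10.1% of those of H2-D1 also occur in transcripts of other genes, against 4.56% for Tapbp, 3.53% for Tap1 and none for the other 6 genes. Values of H2-K1 and H2-D1 are less certain for that reason, by an amount that was not estimated.

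Assembly of the pathway runs in a fixed order. Proteasomes cut cytosolic proteins, and interferons swap the standard catalytic subunits for Psmb8, Psmb9 and Psmb10, which favours peptide ends that fit class I. The heterodimer of Tap1 and Tap2 pumps the peptides into the endoplasmic reticulum, tapasin bridges it to the waiting heavy chain, and the heavy chain leaves with B2m and a peptide. Nlrc5 acts in the nucleus on the promoters of these genes. Resting microglia show little class I, and interferons and microbial ligands are known to raise it.

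Of the 10 genes, 7 lie on mouse chromosome 17 in the major histocompatibility complex or next to it. In the GRCm38 annotation of GENCODE these are Tapbp (chr17:33915899-33929292, plus strand), H2-K1 (chr17:33996017-34000347, minus), Psmb9 (chr17:34181987-34187764, minus), Tap1 (chr17:34187553-34197225, plus), Psmb8 (chr17:34197721-34201454, plus), Tap2 (chr17:34203527-34216321, plus) and H2-D1 (chr17:35262730-35267499, plus). B2m is on chromosome 2 (chr2:122147686-122153083, plus), and Nlrc5 (chr8:94434356-94527272, plus) and Psmb10 (chr8:105935735-105938444, minus) are on chromosome 8. The GENCODE spans of Psmb9 and Tap1 overlap on opposite strands, whereas the RefSeq starts used below do not.

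RefSeq listed a start region in GRCm38.p6 for 8 of the 10 genes, all except Nlrc5 and Tap2. Shown 5′ to 3′ are the 250 bases before the start of the heavy and light chain genes, since these 3 each hold an NF-kB-type and an interferon response match, and the 225 bases between the opposed starts of Psmb9 and Tap1, since those genes share this stretch. Capitals in the H2-K1 and H2-D1 sequences mark an NF-kB-type match and then a short interferon response match, those in B2m an interferon response match and then an NF-kB-type match, and those in the shared stretch a CCAAT box.
H2-K1, minus strand, chr17:34000348-34000597: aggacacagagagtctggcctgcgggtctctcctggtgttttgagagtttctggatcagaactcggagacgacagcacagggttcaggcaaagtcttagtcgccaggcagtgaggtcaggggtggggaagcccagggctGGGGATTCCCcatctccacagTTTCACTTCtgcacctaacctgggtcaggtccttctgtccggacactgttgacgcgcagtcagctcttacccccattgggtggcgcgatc
H2-D1, plus strand, chr17:35262844-35263093: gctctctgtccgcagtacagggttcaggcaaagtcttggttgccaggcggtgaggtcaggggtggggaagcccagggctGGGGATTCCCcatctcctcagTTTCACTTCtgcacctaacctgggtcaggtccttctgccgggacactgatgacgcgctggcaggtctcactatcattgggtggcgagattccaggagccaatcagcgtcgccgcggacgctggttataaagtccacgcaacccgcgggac
B2m, plus strand, chr2:122147437-122147686: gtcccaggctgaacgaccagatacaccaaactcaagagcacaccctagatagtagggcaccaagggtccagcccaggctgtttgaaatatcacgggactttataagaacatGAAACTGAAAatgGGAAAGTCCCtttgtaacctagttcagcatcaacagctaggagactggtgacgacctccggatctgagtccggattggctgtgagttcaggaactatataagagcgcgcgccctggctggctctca
Between the starts of Psmb9 and Tap1, plus strand, chr17:34187331-34187555: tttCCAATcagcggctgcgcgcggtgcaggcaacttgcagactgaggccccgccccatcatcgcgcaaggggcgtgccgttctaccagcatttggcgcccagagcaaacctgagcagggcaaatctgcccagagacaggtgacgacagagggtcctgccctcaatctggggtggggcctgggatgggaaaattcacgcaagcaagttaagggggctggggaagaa
The same decamer and the same nonamer stand in both heavy chain promoters, with the decamer from 111 to 102 bases before the H2-K1 start and from 171 to 162 bases before the H2-D1 start. Motifs were searched as letters on both strands in the 250 bases before each start, and the letters were chosen after the promoters of these genes had been read. The NF-kB pattern of class I enhancers occurred in H2-K1, H2-D1 and B2m and in 4.11% of all 32817 start regions. GAANNGAAA occurred in H2-K1 and H2-D1 (6.31% of all), a longer interferon response pattern in B2m (2.97%), TTCNNNGAA in Psmb8 (7.01%) and CCAAT in 6 of the 8 (33.8%). Neither of the 2 interferon response patterns contains the other. A match describes these letters and does not show that a factor binds there.

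In untreated cultures at 24 h, H2-K1 ranged from 1064 to 4494 CPM (median 2687), H2-D1 from 1126 to 4698 (2811) and B2m from 885 to 2093 (1324). Tapbp ranged from 516 to 2379 CPM (median 801) and Psmb8 from 70.6 to 527 (137). The remaining members were lower in the count table, with medians of 55.1 CPM for Psmb10, 41.3 for Tap2, 31 for Tap1, 18.6 for Psmb9 and 5.32 for Nlrc5. These figures are shares of reads and are not corrected for transcript length, so they do not rank the genes against each other. Part of the spread lay between plates: plate medians of untreated wells ran from 1239 to 3325 CPM for H2-K1 and from 20.3 to 43.2 for Tap1.

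The first question was how the 3 interferons acted on the pathway. At 24 h each interferon raised all 10 genes, by medians over the genes of 1.90 (IFNa), 1.95 (IFNb) and 2.04 (IFNg) on the log2 scale. Over all 16942 genes tested the medians were -0.18, -0.10 and -0.04, and 4.62%, 4.88% and 6.16% of all genes were called higher. Here and below, called means an adjusted p under 0.05 in limma on log2(CPM + 1), with Benjamini-Hochberg adjustment over every gene in the fit and no minimum fold. Wells with more cells of one type and wells with more RNA per cell cannot be told apart in these bulk samples.

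**Figure D1:**
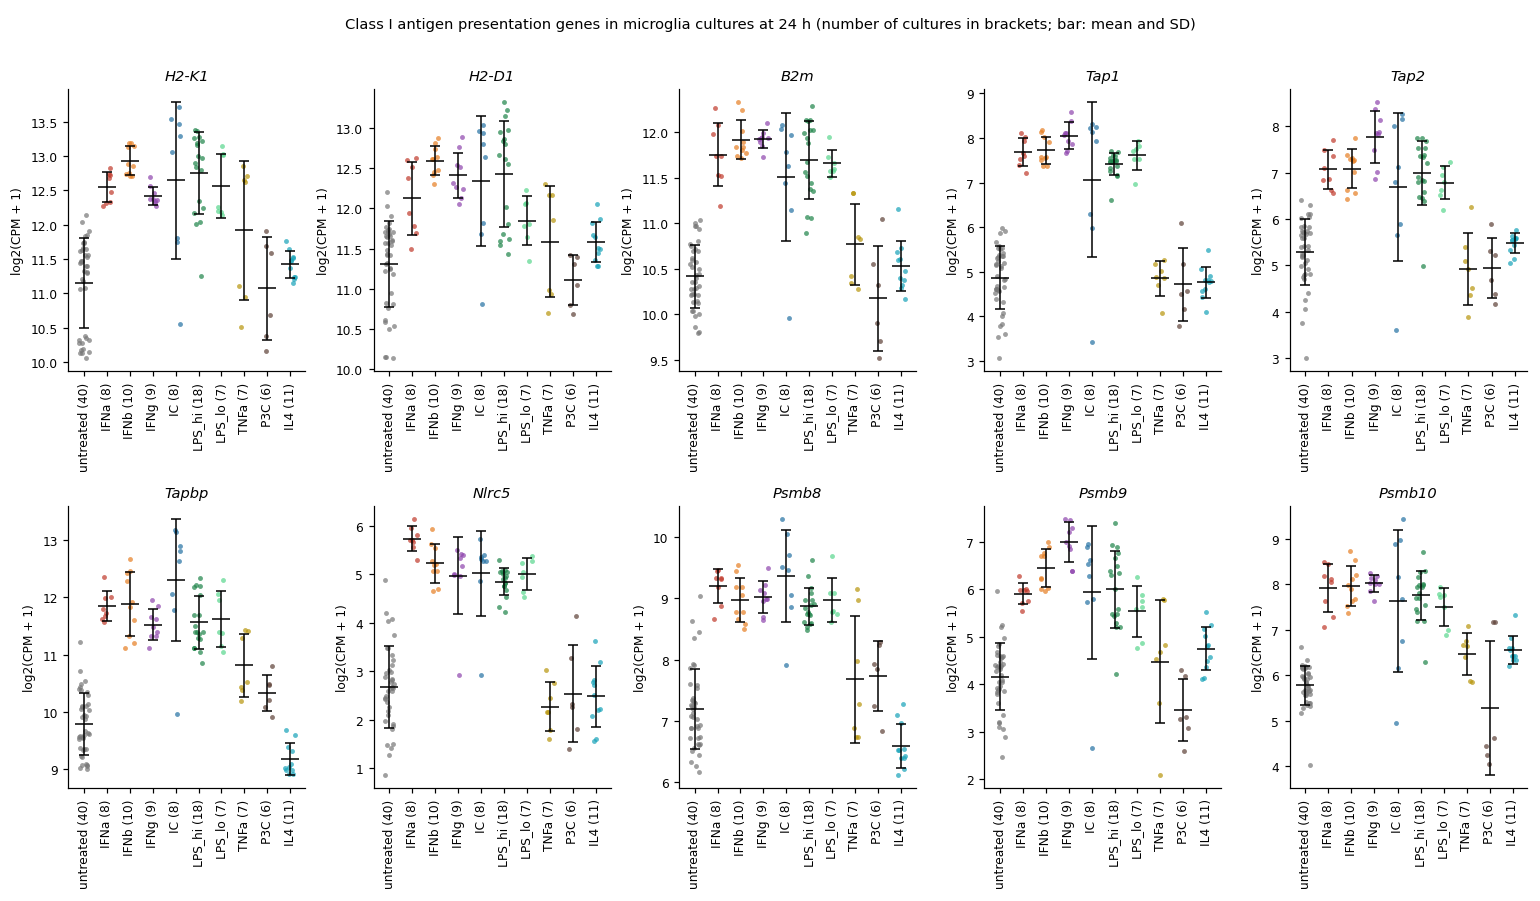
Level of each of the 10 genes at 24 h, as log2(CPM + 1), with 1 point per culture and a bar for the mean and SD, in untreated wells and 9 stimuli. Tap1 in the IFNa, IFNb, IFNg and LPS_hi wells lies above every untreated well, whereas all 11 IL4 wells and 5 of the 6 P3C wells lie within the untreated range.

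The transporter gene Tap1 moved most among the peptide supply genes. It ranged from 7.35 to 62.5 CPM (median 31) in the 40 untreated wells, from 147 to 278 (196) with IFNa, from 165 to 289.9 (190.2) with IFNb and from 203 to 383 (268) with IFNg. No treated well overlapped an untreated one. The rises were 7.03-fold for IFNa (log2 2.81, SE 0.29, adjusted p = 4.0e-18), 7.21-fold for IFNb (2.85, SE 0.27, 4.2e-22) and 9.07-fold for IFNg (3.18, SE 0.28, 4.9e-25). Its partner Tap2 ranged from 93.5 to 206 CPM (median 125) with IFNa, from 84.8 to 213 (153) with IFNb and from 114 to 366 (229) with IFNg, and again every treated well exceeded the highest untreated well at 84.3. Tap2 rose by 1.78, 1.80 and 2.48 (log2). Tapasin, the third piece of the loading machinery, rose by 2.05, 2.09 and 1.74 (log2).

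Nlrc5, the nuclear activator of class I promoters, went from a median of 5.32 CPM to 51.4 with IFNa, 35.8 with IFNb and 35.1 with IFNg. The IFNa wells, at 38.5 to 70.0 CPM, all lay above the highest untreated well at 28.5, whereas the IFNb wells (24.0 to 60.5) and the IFNg wells (6.58 to 44.3) reached into the untreated range. Its rise was 8.37-fold with IFNa (log2 3.07, SE 0.37), 5.88-fold with IFNb and 4.93-fold with IFNg. The difference of IFNg from IFNa was -0.76 (95% interval -1.68 to 0.15) and was not called.

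The inducible proteasome subunits rose as a group. Psmb9 went from 4.55 to 61.3 CPM (median 18.6) in untreated wells to 82.3 to 179 (126) with IFNg, with no overlap (log2 2.83, SE 0.32, adjusted p = 1.4e-15), and to medians of 62.0 with IFNa (log2 1.74) and 88.7 with IFNb (2.29). Psmb10, at 15.4 to 97.3 CPM when untreated, was above that range in every interferon well, at 133 to 356 with IFNa, 164 to 425 with IFNb and 196 to 300.4 with IFNg. Psmb8 rose by 2.02, 1.79 and 1.84 (log2), with overlap in each case, since untreated wells reached 527 CPM.

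The heavy and light chains rose by less. H2-K1 rose by 1.40 (IFNa), 1.78 (IFNb) and 1.27 (IFNg) on the log2 scale, B2m by 1.34, 1.5 and 1.51, and H2-D1 by 0.82, 1.29 and 1.11. H2-K1 and B2m were above every untreated well in all 3 groups, and H2-D1 only with IFNb, where it ranged from 5031 to 7508 CPM. In all, the groups did not overlap for 7 of the 10 genes with IFNa and for 6 with each of IFNb and IFNg, where 1.05%, 1.09% and 1.09% of all genes tested lay wholly higher. Within plates, the treated mean of log2(CPM + 1) was set against the untreated one. It was higher in 20 of 20 pairs of plate and gene for IFNa, 30 of 30 for IFNb and 30 of 30 for IFNg.

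Direct comparison of the interferons called none of the 10 genes. Of all genes, 4.90% differed between IFNg and IFNb and 9.11% between IFNg and IFNa, in either direction, by limma. At an unadjusted p under 0.05 there was 1 member in each comparison, against 13.4% and 21.1% of all genes. H2-K1 in IFNg wells differed from that in IFNb wells by -0.51 (log2; 95% interval -1.02 to -0.01, adjusted p = 0.365), and the 2 groups did not overlap. Psmb9 was 1.09 higher with IFNg than with IFNa (95% interval 0.26 to 1.92, adjusted p = 0.0887), also without overlap. How many of all genes were free of overlap in these comparisons was not counted. IFNa and IFNg wells at 24 h shared no plate, so plate and interferon cannot be told apart in that comparison.

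**Figure D2:**
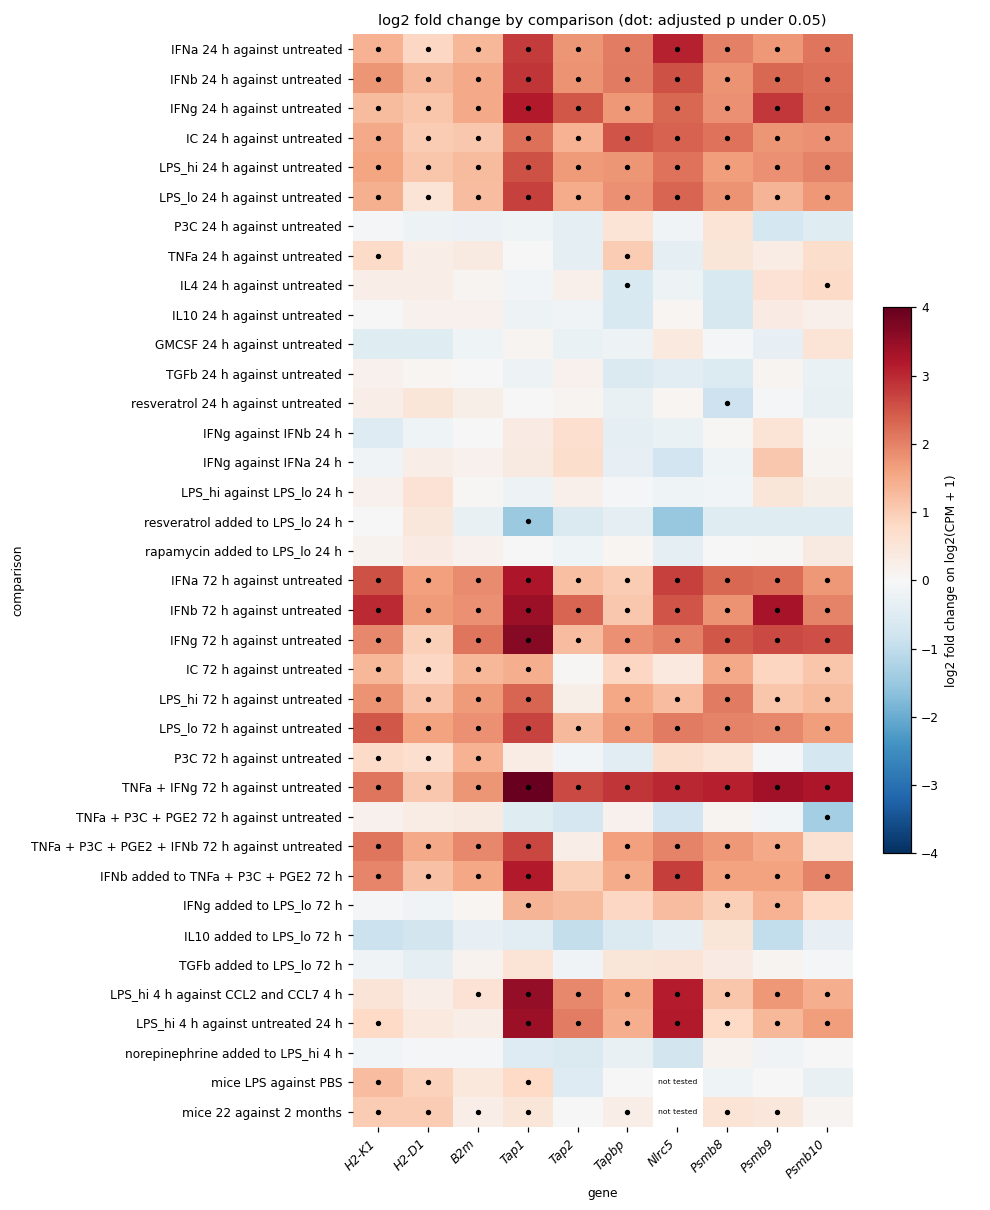
Log2 difference of each of the 10 genes (columns) in 37 comparisons (rows), coloured from -4 to 4, with a dot where the adjusted p was under 0.05. Rows that set IFNa, IFNb, IFNg or LPS against untreated wells at 24 and 72 h carry 9 or 10 dots, rows for PolyIC carry 10 at 24 h and 7 at 72 h, rows for P3C, IL4, IL10, GMCSF and TGFb at 24 h carry 0 to 2, and Nlrc5 is marked as not tested in the mice.

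Other genes of antigen presentation differed in which interferon raised them. All 7 genes of the class II pathway rose with IFNg, by a median of 6.27 (log2), led by H2-Aa (8.80, SE 0.50) and H2-Eb1 (8.06, SE 0.55); none of the 7 was called with IFNa and 1, H2-Aa (1.39, SE 0.47), with IFNb. The 7 genes were all called higher in IFNg than in IFNb. The aminopeptidase Erap1, which trims peptides, rose by 1.87 (SE 0.35) and the second editor of class I peptides, Tapbpl, by 3.04 (SE 0.31) with IFNg, as 5 of 7 loading and trimming genes rose, against 1 higher and 1 lower with IFNa and 3 higher and 1 lower with IFNb. Of 14 standard proteasome subunits, 9 rose with IFNg and 2 with each type I interferon. The activator subunits Psme1 and Psme2 rose with all 3 interferons, Psme1 by 1.98, 1.55 and 1.67 (log2).

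Among 17 tested heavy chains outside the members, which include the nonclassical H2-Q and H2-T genes, 8 rose and 2 fell with IFNa, 8 rose and 2 fell with IFNb, and 8 rose and 1 fell with IFNg. H2-T22 rose by 3.40 (SE 0.27) with IFNa and by 2.80 (SE 0.25) with IFNb, and H2-T23 by 3.39 (SE 0.32) with IFNb and 2.85 (SE 0.33) with IFNg. Of 15 regulators, Irf1 rose by 1.95, 2.36 and 4.40 (log2) with the 3 interferons. The dendritic cell markers Clec9a and Xcr1 rose with IFNg, and the summed level of the 5 markers of that list ran from 5.21 to 153 CPM (median 107) with IFNg against 0 to 18 (median 2.48) in untreated wells, with Cd209a at 0 in all IFNg wells. The 6 microglial markers summed to 483 to 1279 CPM with IFNa (median 842), 276 to 724 with IFNb (544) and 297 to 553 with IFNg (391), against 871 to 1941 (1046) in untreated wells, which the IFNb and IFNg wells did not reach. The part of either change in the rise of the 10 genes was not tested. The 5 NK cell markers were at 0 in all IFNa and IFNb wells.

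PolyIC raised all 10 genes at 24 h (background 3.88% of genes higher), by a median of 1.81 (log2). One well, replicate 05, lay at the untreated level, with H2-K1 at 1499 CPM, Tap1 at 9.73 and Psmb9 at 5.31, so no gene was free of overlap. The other 7 wells ranged from 3429 to 13422 CPM for H2-K1 and from 62.5 to 319 for Tap1. Tapbp showed the largest rise here, 5.73-fold (log2 2.52, SE 0.21, adjusted p = 1.7e-26), and Psmb8 rose 4.50-fold. Without that well all 10 were again called. The 6 microglial markers summed to 165 to 554 CPM with PolyIC (median 345), below every untreated well; their part was not tested.

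LPS is read by TLR4 and raises type I interferon as well as NF-kB targets. LPS_hi raised all 10 genes at 24 h (background 8.97%), by a median of 1.74 (log2), and LPS_lo did so too (5.38%), by a median of 1.61. Tap1 ranged from 97.1 to 209.6 CPM (median 178) in the 18 LPS_hi wells and from 124 to 243 (208) in the 7 LPS_lo wells, above every untreated well in both cases. It rose 5.83-fold (log2 2.54, SE 0.22, adjusted p = 1.6e-27) and 6.67-fold (2.74, SE 0.31, 1.2e-15). The smallest change was that of H2-D1 with LPS_lo, from a median of 2811 CPM to 3583 (log2 0.54, SE 0.18, adjusted p = 0.0176).

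The low and the high LPS dose were compared at 24 h. None of the 10 was called between them, where 0.336% of all genes were called in either direction, and 1 had an unadjusted p under 0.05 (5.67% of all genes). That gene was H2-D1, which was 0.58 higher with LPS_hi (log2; 95% interval 0.20 to 0.96, adjusted p = 0.276 in limma). On the 2 plates that held both doses, however, the H2-D1 differences were -0.27 and 0.00 (log2), so the rise was not seen within plates. For Tap1 the difference was -0.19 (95% interval -0.86 to 0.47). Within plates LPS_hi was above untreated in 60 of 60 pairs of plate and gene, by 0.18 to 2.99 (log2). Of the regulators Irf8 fell by 1.30 (SE 0.14) with LPS_hi. The 6 microglial markers summed to 66.2 to 301 CPM with LPS_hi; their part was not tested.

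2 agents added to LPS_lo were tested at 24 h. Resveratrol (50 µM) with LPS_lo lowered Tap1 from 124 to 243 CPM (median 208) to 35.6 to 104 (80.6), with no overlap (log2 -1.49, SE 0.39, adjusted p = 0.0259). It was 1 of 10 members called lower, against 0.431% of all genes, and with the library pool as a covariate it was not called (log2 -1.24). Nlrc5 also lay wholly lower, at 2.95 to 22.0 CPM against 22.2 to 40.5, at an adjusted p of 0.128 in limma. How many of all genes lay wholly lower was not counted. H2-K1 differed by 0.01 (95% interval -0.56 to 0.58). Rapamycin (5 nM) with LPS_lo changed none of the 10 by limma, against 0.212% of all genes in either direction, nor any at an unadjusted p under 0.05, against 5.00%.

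P3C signals through TLR2. None of the 10 genes was called at 24 h, although 23.5% of all genes were called in one direction or the other, and 2 members had an unadjusted p under 0.05 in limma, against 32.8% of all genes. Tap1 was at 29.4 CPM on average against 31.4 (difference -0.16, 95% interval -0.81 to 0.50) and H2-K1 at 2397 against 2488 (-0.08, 95% interval -0.56 to 0.40). Those with an unadjusted p under 0.05 were Tapbp and Psmb8, both at 0.54 higher.

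TNFa raised 2 of the 10 genes at 24 h (1.87% of all genes higher), Tapbp by 1.02 (log2; SE 0.23, adjusted p = 5.6e-04) and H2-K1 by 0.76 (SE 0.23, 0.0286). H2-K1 ranged from 1454 to 7427 CPM (median 6297) in the 7 wells, 3 of which were below the untreated median of 2687. By plate the H2-K1 difference ran from -0.13 to 1.42, and that of Tapbp from 1.00 to 1.38. In the fit of the TNFa and untreated wells alone H2-K1 was not called. Tap1, by contrast, was at 28.7 CPM against 31.4 (difference -0.02, 95% interval -0.63 to 0.59).

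Other single agents moved few members. With IL4, 4.83% of all genes were called in either direction, and of the 10 genes Psmb10 was higher by 0.77 (log2; SE 0.24, adjusted p = 0.0292) and Tapbp fell by 0.61 (SE 0.19, 0.0310), although with the library pool as a covariate the Tapbp difference was -0.20 and not called. With resveratrol alone, where 0.584% of all genes were called lower, Psmb8 fell by 0.82 (SE 0.20, 0.0159). None of the 10 was called with IL10 (1.17% of all genes in either direction), GMCSF (2.95%) or TGFb (2.48%) by limma, and at an unadjusted p under 0.05 there were 2, 3 and 2, against 8.54%, 14.7% and 13.3% of all genes.

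The order of all 24 h conditions was then taken from the mean of log2(CPM + 1) over the 10 genes. IFNg (9.31), IFNb (9.27), IFNa (9.18), PolyIC (9.05) and LPS_hi (9.03) stood at the top. Their SDs between wells were 0.18, 0.17, 0.10, 1.05 and 0.30, and that of PolyIC includes the low well at 6.68. Differences between these conditions on this mean were not tested. Untreated wells were at 7.26 ± 0.27 (SD, n = 40), and the lowest condition was Valproic Acid at 6.88 ± 0.32 (SD, n = 6). Of the 44 stimulated conditions 10 lay wholly above the untreated wells on this mean, 3 of them interferons and 7 with LPS, and none lay wholly below. The lowest of those 10 was LPS_hi with minocycline (8.70). LPS_lo with resveratrol (8.39) came next and overlapped the untreated wells, and TNFa (7.57) followed after a wider step.

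**Figure D3:**
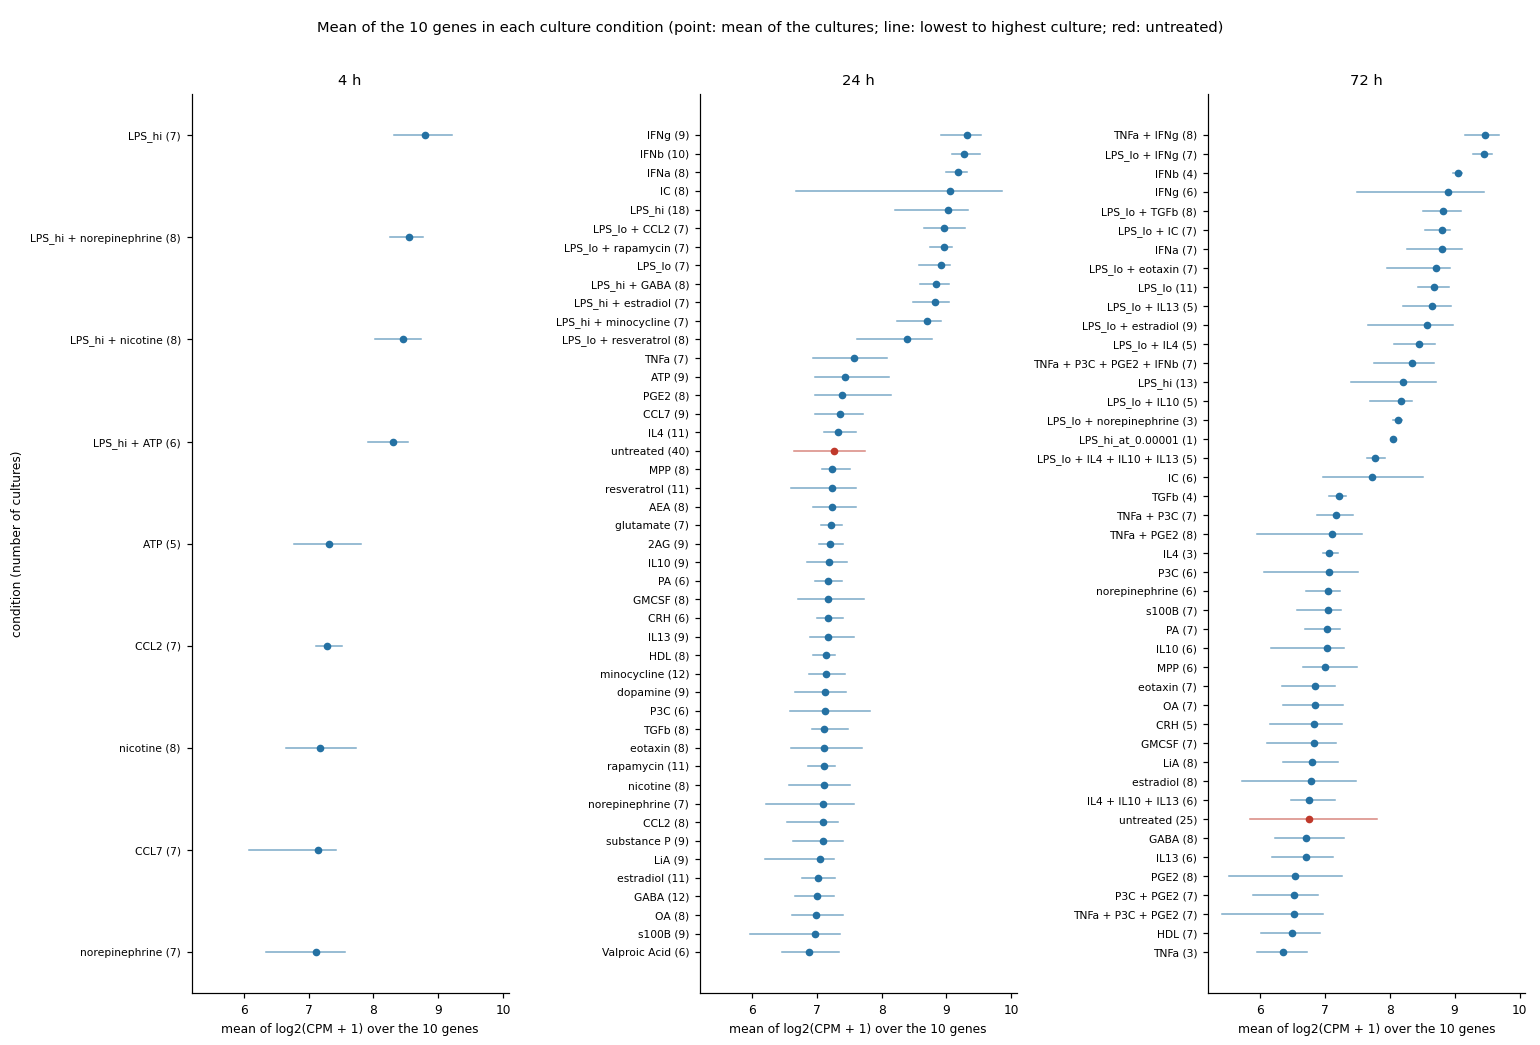
Mean of log2(CPM + 1) over the 10 genes in each condition at 4, 24 and 72 h, with a point for the condition's mean, a line from its lowest to its highest culture and untreated wells in red. At 24 h the conditions with interferon, PolyIC or LPS stand between 8.39 and 9.31 and all others between 6.88 and 7.57.

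At 4 h there were no untreated wells, so LPS_hi was compared with the chemokines CCL2 and CCL7 at 4 h. Already at this time 8 of the 10 genes were called higher, against 5.97% of all genes. Tap1 ranged from 188 to 457 CPM (median 372), against 21 to 46.5 (32.3) with CCL2 and 4.97 to 39.5 (29.9) with CCL7, an 11.4-fold rise (log2 3.51, SE 0.35, adjusted p = 7.4e-20). Nlrc5 rose 8.77-fold, from medians of 8.26 and 4.78 CPM to 48.0. The heavy chains were the 2 not called, with H2-K1 at 0.50 (95% interval -0.01 to 1.01) and H2-D1 at 0.28 (95% interval -0.12 to 0.68), and B2m rose by 0.59 (SE 0.17, adjusted p = 0.00434).

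Set against the untreated wells of 24 h, 8 of 10 genes were also called higher in the 4 h LPS_hi wells (6.82% of all genes), H2-D1 and B2m being the exceptions, though time and stimulus cannot be told apart there. The 7 LPS_hi wells at 4 h had medians of 4103 CPM for H2-K1 and 1709 for B2m, and the 18 wells at 24 h had 7846 and 3519. Tap1 and Nlrc5 were at 372 and 48.0 CPM at 4 h and at 178 and 29 at 24 h. The difference between the times was not tested. Norepinephrine (1 µM) added to LPS_hi at 4 h changed none of the 10 by limma (1.53% of all genes in either direction), nor any at an unadjusted p under 0.05 (10.1%). Tap1 differed by -0.53 (95% interval -1.30 to 0.24).

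At 72 h the interferons again raised all 10 genes, with 3.97% (IFNa), 3.88% (IFNb) and 6.01% (IFNg) of all genes higher and medians over the members of 2.06, 2.15 and 2.08 (log2). The 4 IFNb wells, all on 1 plate, had H2-K1 at 8624, 8410, 8883 and 9480 CPM and Tap1 at 213, 274, 207 and 236 CPM. Untreated wells at 72 h had H2-K1 at 294 to 2110.0 CPM (median 1378) and Tap1 at 3.70 to 70.6 (22.1), so neither gene overlapped. H2-K1 rose 7.88-fold (log2 2.98, SE 0.30, adjusted p = 1.6e-18) and Tap1 10.7-fold (3.42, SE 0.41, 1.2e-13), and 8 of the 10 genes were free of overlap, against 2.12% of all genes. Against the untreated wells of their own plate alone the differences were 2.27 for H2-K1 and 2.61 for Tap1 (log2), and all 10 genes were higher, by 1.03 or more. Tap2 was not called with plate or library pool as a covariate (log2 1.20 and 1.11), and Tapbp not without cultures under 2 M reads, nor without replicate 01 or 03 (log2 1.01, 1.04 and 1.06).

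IFNg at 72 h raised B2m from 865 to 4073 CPM (median 1702) to 6312 to 12278 (6689.9), 4.41-fold (log2 2.14, SE 0.17, adjusted p = 1.8e-29). Tap1 rose 12.4-fold. Tap2 was uneven, from 0.910 to 249 CPM over the 6 wells (log2 1.24, SE 0.45, adjusted p = 0.0405). The lowest value belonged to replicate 05, in which Nlrc5 was at 0 as well. Without that well all 10 genes were called. Tap2 was called with IFNg in 8 of 11 alternative analyses, and its differences within the 2 plates were -0.30 and 2.06. With IFNa, Tap2 was close to the threshold (log2 1.20, SE 0.42, adjusted p = 0.0499), at 21.6 to 117 CPM against 1.85 to 65.9 in untreated wells. That effect was called in 6 of 10 alternative analyses.

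**Figure D4:**
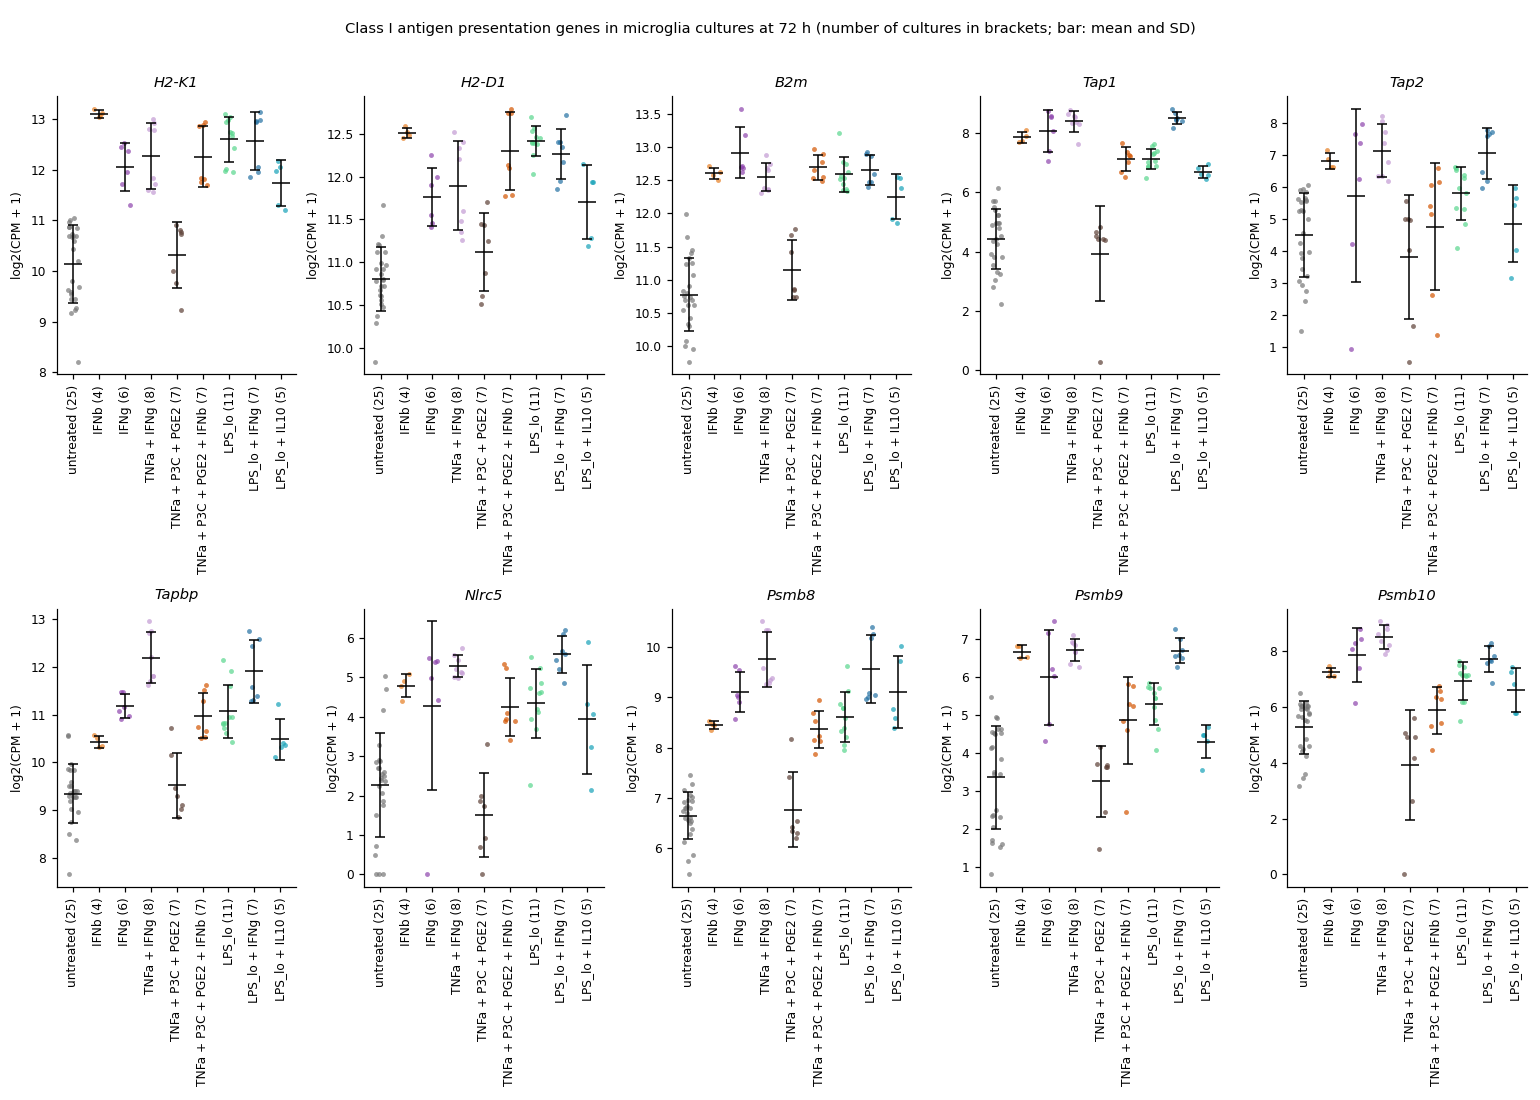
Level of each of the 10 genes at 72 h, as log2(CPM + 1), with 1 point per culture and a bar for the mean and SD, in untreated wells and 8 stimuli. The 8 wells given TNFa with IFNg lie above all 25 untreated wells for Tap1, Tap2, Tapbp, Psmb8, Psmb9, Psmb10, H2-K1 and B2m.

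TNFa combined with IFNg gave the highest mean of any 72 h condition, 9.47 (SD 0.17) against 6.75 in untreated wells. LPS_lo with IFNg was close behind at 9.45 (SD 0.11). IFNg alone was at 8.90 (SD 0.75), which includes the low well at 7.50. TNFa with IFNg was not tested against either. All 10 genes were called higher (6.17% of all genes), by a median of 2.93 (log2), and 8 did not overlap, against 1.02% of all genes. Tap1 ranged from 198 to 437 CPM (median 353), a 15.6-fold rise (log2 3.96, SE 0.31, adjusted p = 1.7e-31). The inducible subunits Psmb8, Psmb9 and Psmb10 rose 8.69-fold, 10.2-fold and 9.37-fold. TNFa alone at 72 h had only 3 wells and the lowest mean of all (6.35), with values of 5.95 to 6.72.

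LPS still raised the pathway at 72 h. LPS_lo raised all 10 genes (6.11% of all genes higher), by a median of 1.87, and LPS_hi raised 9 (5.84%), by a median of 1.41. The exception was Tap2, at 37 CPM on average with LPS_hi against 30 (difference 0.22, 95% interval -0.44 to 0.88). PolyIC raised 7 (4.24% of all genes), among them Psmb8 by 1.53 (SE 0.27, adjusted p = 4.6e-06), Tap1 by 1.45 (SE 0.35, 0.00128) and B2m by 1.33 (SE 0.17, 6.0e-11). Its wells were uneven, with Tap1 at 10.9 to 152 CPM, and within its 2 plates 14 of 20 pairs of plate and gene were higher, with differences from -1.11 to 2.67. In the fit of PolyIC and untreated wells alone 4 were called.

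At 72 h the members called with P3C were the chains. B2m rose by 1.40 (SE 0.17, adjusted p = 2.7e-13), H2-K1 by 0.76 (SE 0.26, 0.0381) and H2-D1 by 0.67 (SE 0.20, 0.0118), 3 of 10 against 6.04% of all genes. H2-K1 was not called with no filter on low values or in the fit of P3C and untreated wells alone (adjusted p = 0.152), and with plate as a covariate 5 members were called, 4 higher and 1 lower. Tap1 differed by 0.31 (95% interval -0.37 to 0.99) and Psmb9 by -0.04 (-0.82 to 0.73). Within its 2 plates 12 of 20 pairs of plate and gene were higher, with differences from -2.26 to 2.69.

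The mixture of TNFa, P3C and PGE2 lowered 1 member, Psmb10, by limma (6.68% of all genes lower), from 7.93 to 91.1 CPM (median 49.8) to 0 to 48.4 (29.4), with a log2 difference of -1.37 (SE 0.30, adjusted p = 1.4e-04). In the fit of those wells and untreated wells alone it was not called (adjusted p = 0.0667), and with library pool as a covariate 5 members were. IFNb in the same mixture raised 8 of the 10 over untreated wells (5.74%), all but Tap2 and Psmb10, and raised 9 over the mixture without it (2.25%), all but Tap2. Tap1 went from 0.224 to 27.2 CPM (median 20.8) without IFNb to 91.0 to 203 (150.5) with it, 9.04-fold (log2 3.18, SE 0.41, adjusted p = 8.6e-12). Tap2 differed by 0.94 (95% interval -0.10 to 1.98).

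Adding IFNg to LPS_lo at 72 h raised 3 genes of peptide supply over LPS_lo alone. Tap1 went from 89.6 to 197 CPM (median 133) to 288 to 452 (351), with no overlap (log2 1.37, SE 0.37, adjusted p = 0.0113). Psmb9 rose by 1.40 (SE 0.42, 0.0371) and Psmb8 by 0.96 (SE 0.29, 0.0379), which made 3 of 10 against 1.42% of all genes. None of the chains was called: H2-K1 differed by -0.04 (95% interval -0.57 to 0.49), H2-D1 by -0.15 (-0.57 to 0.26) and B2m by 0.07 (-0.29 to 0.43). At an unadjusted p under 0.05 there were 7 members, against 2038 of all 16942 genes. Within the 2 plates with both groups, Tap2 was higher by 1.15 to 1.45 and Nlrc5 by 0.98 to 1.58. Psmb10 was higher there by 0.71 to 1.41 and Tapbp by 0.59 to 0.72. With plate as a covariate 5 members were called.

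The effect of IFNg in the presence of LPS_lo was smaller than its effect alone for 6 of the 10 genes (1.81% of all genes). The difference of the 2 effects was -2.07 for B2m (SE 0.25, adjusted p = 2.1e-12), -1.97 for H2-K1 (SE 0.37, 6.9e-05), -2.26 for Tap1 (SE 0.50, 0.00136), -1.79 for Psmb10 (SE 0.46, 0.00886), -1.52 for Psmb8 (SE 0.40, 0.00958) and -1.11 for H2-D1 (SE 0.29, 0.00955). For Tap2 it was 0.01 (95% interval -1.27 to 1.30). The levels themselves were higher in LPS_lo with IFNg than in IFNg alone for Tap1, with medians of 351 and 322 CPM, and lower for B2m, with 6190.2 and 6689.9; these last differences were not tested.

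IL10 and TGFb added to LPS_lo at 72 h changed none of the 10 genes by limma, while 2.62% and 3.45% of all genes were called in either direction. At an unadjusted p under 0.05 there were 3 members with IL10 and none with TGFb, against 2538 and 2204 of all 16942 genes. With IL10, the log2 difference was -0.72 for H2-D1 (95% interval -1.18 to -0.26, adjusted p = 0.0692) and -0.86 for H2-K1 (95% interval -1.45 to -0.26, adjusted p = 0.102).

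Differences between the times were tested as the effect at 72 h less the effect at 24 h, with untreated wells of each time as the base. Since 24 h wells came from 3 lots and 72 h wells from 1, time and lot cannot be told apart. None of the 10 genes was called for IFNg (4.26% of all genes in either direction) or for IFNb (0.407%) by limma, with 3 and 2 at an unadjusted p under 0.05, against 17.1% and 8.39% of all genes. For LPS_hi the effect on Tap2 was smaller at 72 h, by a log2 difference of -1.48 (SE 0.44, adjusted p = 0.0183), 1 of 10 against 3.84% of all genes lower. With the library pool as a covariate that difference was -0.72 and not called, and 3 other members were called higher. For PolyIC the effects on Tapbp (-1.69, SE 0.33, 7.8e-05) and Nlrc5 (-1.95, SE 0.58, 0.0231) were smaller, 2 of 10 against 2.11%, but without IC_72h replicate 06, in which Nlrc5 was at 0, only Tapbp was called.

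Across the 97 culture conditions with more than 1 well, the genes moved together to unequal degrees. Pearson's r of each gene with the mean of the other 9, over condition means of log2(CPM + 1), was 0.95 for Tap1, 0.92 for Nlrc5, 0.90 for H2-K1 and Tapbp, 0.88 for Psmb9, 0.87 for Psmb8, 0.85 for Psmb10, 0.81 for H2-D1, 0.76 for Tap2 and 0.68 for B2m. The closest pair was H2-K1 with H2-D1 (0.96), 2 genes that also share read sequence, and the most distant was B2m with Tap2 (0.28). These values pool the times. Within the 45 conditions of 24 h the lowest r between any 2 members was 0.74 (median 0.90). Within the 43 conditions of 72 h it was 0.56 (median 0.82). Untreated medians of B2m were 1324 CPM at 24 h and 1702 at 72 h, and those of Tap2 were 41.3 and 31.2. The points share plates, lots and stimuli, so r is given as a description.

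Of 16942 genes ranked by their r with the mean of the 10, the nearest 10 outside the members included Phf11b (0.962), Zbp1 (0.962), Samhd1 (0.954), Phf11a (0.950), Ifi47 (0.945), Phf11d (0.942), Herc6 (0.940), Gbp3 (0.937) and Irgm1 (0.937), over the same 97 conditions.

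In mice, LPS for 4 h raised 3 of the 9 members tested, where 8.79% of 9012 genes were called higher. H2-K1 was at 789, 696, 735 and 920 CPM in the PBS mice and at 1774, 2192, 1829 and 1566 in the LPS mice, with a gap between the groups (2.34-fold, log2 1.23, SE 0.14, adjusted p = 1.4e-05). H2-D1 was at 467, 565, 560.3 and 485 CPM against 935, 1244, 986 and 795 (log2 0.92, SE 0.14, 3.8e-04). Tap1 was at 29.8, 36.1, 45.3 and 34.5 CPM against 65.7, 70.4, 64.5 and 52.7 (log2 0.79, SE 0.16, 0.00321). Each of these 3 genes was higher in 4 of 4 LPS mice than in every PBS mouse, as were 9.37% of all genes tested.

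The other 6 genes tested were not called. B2m was at 2170, 2463, 1866 and 2258 CPM with PBS and at 3256, 3981, 1860 and 2999 with LPS, where 1 LPS mouse was below all PBS mice (log2 0.42, 95% interval 0.03 to 0.81, adjusted p = 0.144 in limma). The inducible proteasome subunits had differences of -0.16 for Psmb8 (95% interval -0.46 to 0.15), 0.02 for Psmb9 (-0.44 to 0.49) and -0.31 for Psmb10 (-0.70 to 0.07). Tapbp differed by 0.00 (-0.27 to 0.28) and Tap2 by -0.52 (-1.0 to -0.05, adjusted p = 0.137). Nlrc5 fell under the filter on low values and was not tested: it was at 1.18, 0.433, 2.57 and 0.725 CPM with PBS and at 2.96, 2.73, 5.74 and 5.74 with LPS, all above the PBS mice.

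**Figure D5:**
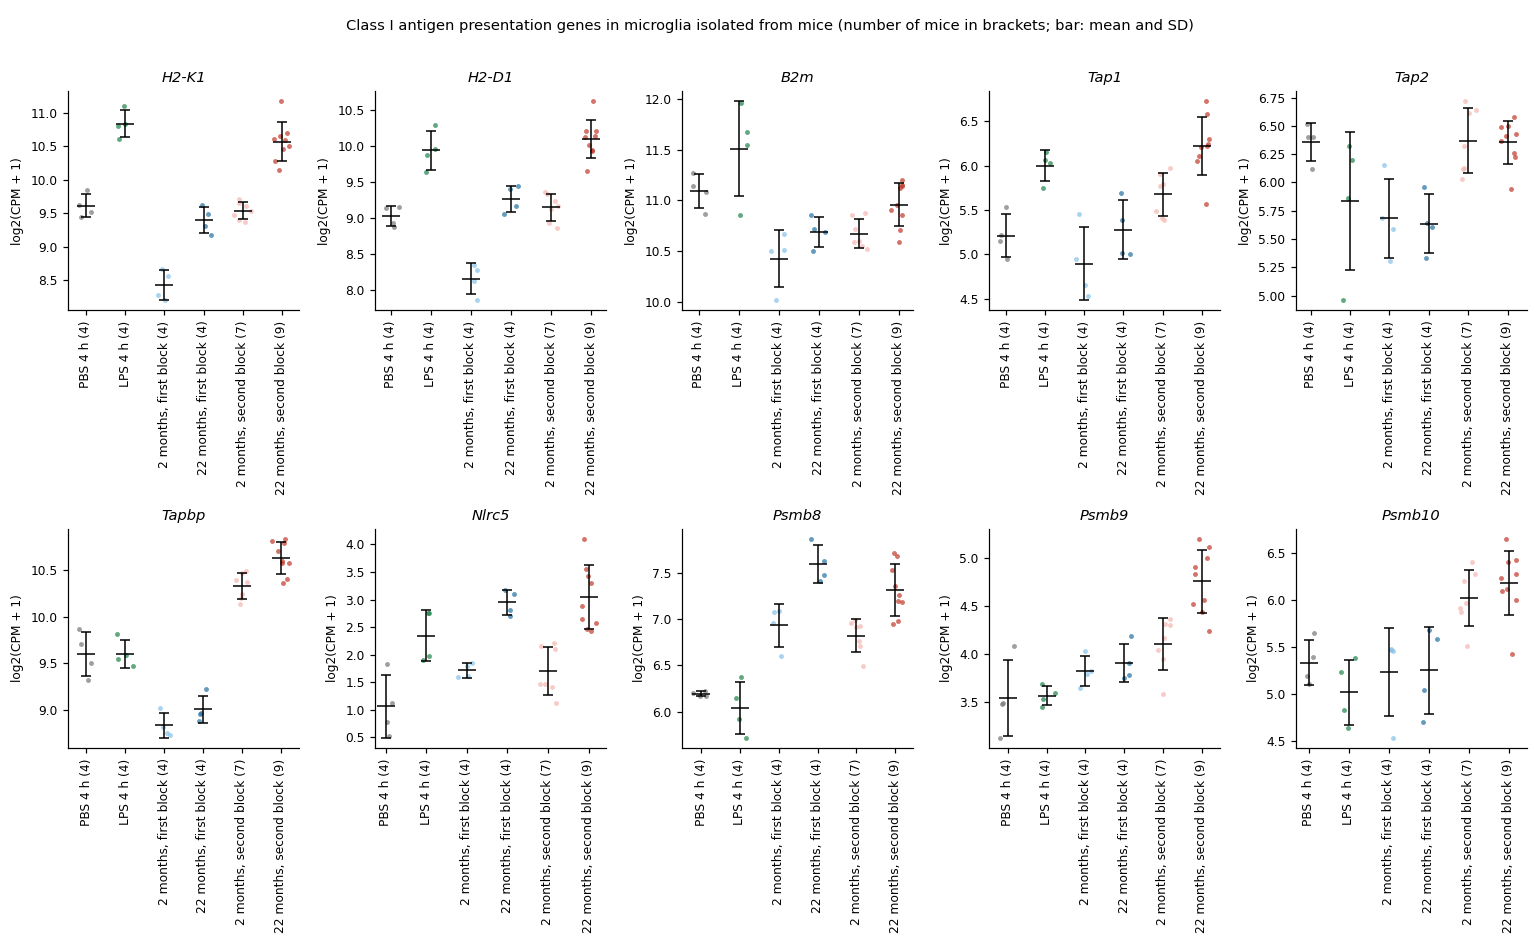
Level of each of the 10 genes in the mice, as log2(CPM + 1), with 1 point per mouse and a bar for the mean and SD, for PBS and LPS at 4 h and for 2 and 22 months in each of the 2 blocks of library numbers. H2-K1 and H2-D1 separate fully between LPS and PBS and between the ages within each block.

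Of the other heavy chains 4 of 12 rose with LPS in mice, H2-Q7 by 2.99 (SE 0.19), H2-Q5 by 2.89 (SE 0.39), H2-Q6 by 2.11 (SE 0.20) and H2-Q4 by 1.48 (SE 0.22). Irf1, which drives interferon responses, rose by 2.60 (SE 0.14), as 8 of 14 regulators were called higher. The neutrophil markers summed to 179 to 328 CPM in LPS mice and 81.8 to 149 in PBS mice, with 4 of 5 tested markers called higher. The 5 monocyte markers summed to 62.4 to 119.6 against 26.6 to 60.8, and 3 of 5 were called higher. The NK markers summed to 5.78 to 16.2 against 1.44 to 8.11, and the 6 microglial markers to 11565 to 13589.8 against 13591 to 16571. The 5 B cell markers summed to 96.2 to 333 (median 104) in LPS mice and 255 to 356 (308) in PBS mice. The part of these cells in the result was not tested.

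Age raised 7 of the 9 members tested, against 6.95% of 9632 genes higher. The fit held the block of library numbers, since the titles fall into 2 runs of numbers, each with both ages, and levels differed between them. H2-K1 rose 2.02-fold (log2 1.01, SE 0.09, adjusted p = 7.3e-10) and H2-D1 2.00-fold (1.00, SE 0.09, 9.4e-10). Psmb8 rose by 0.55 (SE 0.09, 1.1e-04), Tap1 by 0.49 (SE 0.12, 0.00731), Psmb9 by 0.46 (SE 0.13, 0.0196), B2m by 0.28 (SE 0.08, 0.0208) and Tapbp by 0.25 (SE 0.07, 0.0131). Tap2 (-0.02, 95% interval -0.23 to 0.18) and Psmb10 (0.11, -0.16 to 0.38) were not called. Without the block term 3 of the 9 were called.

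Within the first block, H2-K1 ranged from 296 to 405 CPM (median 343) in 4 mice of 2 months and from 577 to 787 (676) in 4 mice of 22 months. Within the second it ranged from 663 to 834 (737) in 7 mice and from 1132 to 2299.6 (1538) in 9. The ages did not overlap in either block, and the block differences were 0.97 and 1.03 (log2). H2-D1 likewise separated in both, by 1.11 and 0.95. Nlrc5, which was not tested, was at 2.01 to 2.62 CPM against 5.53 to 8.04 in the first block and at 1.18 to 3.61 against 4.36 to 16 in the second, with no overlap in either. How many of all genes separated by age within a block was not counted. In the LPS experiment, also with 4 mice against 4, 9.37% of all genes tested lay wholly higher.

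Psmb9 was uneven between the blocks, at 11.5 to 15.3 against 12.4 to 17.2 CPM in the first (difference 0.08) and 11 to 19.6 against 17.9 to 35.6 in the second (0.66). Psmb8 was at 96.0 to 135 against 169 to 232 CPM in the first block (0.66) and at 89.0 to 126 against 123 to 210.1 in the second (0.50). Tapbp carried the block difference most plainly, with medians of 442 and 1328 CPM in the mice of 2 months. The sources do not say what the runs of library numbers stand for.

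Of the other heavy chains 4 of 11 rose with age, led by H2-Q7 (2.07, SE 0.16) and H2-Q6 (1.32, SE 0.15). All 6 tested class II genes rose, by a median of 0.68, Cd74 by 0.74 (SE 0.15). The activator subunits Psme1 (0.47, SE 0.08) and Psme2 (0.50, SE 0.15) rose while none of the 14 standard proteasome subunits was called in limma.

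Markers of other blood cells moved with age too. The 6 neutrophil markers, all called higher, summed to 322 to 4045 CPM (median 1185) at 22 months and 150.3 to 1213 (578) at 2 months. The monocyte markers summed to 97.2 to 641 (median 246) against 53.9 to 207 (114), with 4 of 5 called, the 7 T cell markers to 12.2 to 82.0 (27.3) against 4.06 to 20.8 (8.18), and the NK markers to 2.11 to 69.1 (13.5) against 1.88 to 15.7 (4.67). In the T and NK cell lists 1 gene each passed the filter, Trbc2 and Nkg7, and both were called higher. The 6 microglial markers summed to 11277 to 19591 CPM (median 14785) at 22 months and 11962 to 19664 (17765) at 2 months. Their medians at 22 and 2 months were 12286 and 13389.9 in the first block and 16276 and 18536 in the second. The part of these cells in the rise of the 7 genes was not tested.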

How the data were processed

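RNA of 784 microglial cultures and of CD11b-selected cells from 32 mice was sequenced from transcript 3′ ends. Per the methods, the authors quantified reads with Salmon against Ensembl mouse transcripts (version 0.7.1 in the submitters' processing notes, which also name the build mm8), summed transcripts per gene and divided by mapped reads. The deposited values are therefore CPM, scaled by mapped reads and not corrected for length, and short or 3′-shared transcripts can lose or gain reads. The values listed for a sample summed to 996125 to 999918 in the cultures and to 885237 to 983443 in the mice, so the mouse totals were not equal. Per the methods, the authors discarded samples with few mapped reads or few expressed genes. Values were whole multiples of a read (within 0.1) for a median of 78.4% of low values per culture and 85.8% per mouse, too few to recover reads, so no count model was run.

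Groups came from the sample labels. For the tests log2(CPM + 1) was fitted with limma 3.58.1 (lmFit and eBayes with trend) in R 4.3.3, and p-values were adjusted by Benjamini-Hochberg over every gene in the fit. 1 fit held all 784 cultures with a mean per condition and no covariate (16942 genes above 5 CPM in at least 4 cultures). The 8 mice of the LPS experiment (9012 genes, at least 4 mice) and the 24 aging mice (9632 genes, at least 11 mice, library number block as covariate) were fitted apart. Alternatives were other pseudocounts (0.5 and 5), median ratio scaling, a stricter filter (79 cultures) or none, a minimum log2 fold change of 1, plate or library pool as covariate, no cultures under 2 M reads, fits of the compared groups alone, fits of each library number block alone with a filter of its own, and leaving out each sample in turn of the groups of up to 5 (IFNb at 72 h, LPS_lo with IL10, and the LPS and PBS mice), plus 5 single samples chosen after seeing the data. Python 3.11.15, numpy 2.4.6, pandas 2.3.3 and matplotlib 3.10.9 served for tables and plots. Scripts were tested on simulated data.

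The members, gene lists, marker lists and comparisons were chosen with earlier results of these data known. The 10 members are always named, and of the other lists up to the 4 genes with the largest change among those called. Depth was 1 to 38.2 M mapped reads per culture and 2.36 to 7.78 M per mouse, and no interval covers more than the spread between samples. Gene positions and start regions are from GRCm38 (GENCODE and RefSeq) and no coordinates were taken from the deposited files. The labels give 11 and 13 naive aging mice, and a header in the deposited table calls them vehicle. Some genes of the marker and gene lists are not reported here by name.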

Additional observations from a re-analysis of the deposited data

Results flagged for a closer look

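The mean of log2(CPM + 1) over the 10 genes was compared between wells in 85 groups of 4 to 10 samples, where chance sets a sample apart in about 1 of 20 groups. It stood apart from the rest of its group in 10 wells. Replicate 05 of PolyIC at 24 h (IC) was at 6.68, against 8.70 to 9.86 in the other wells, with 11.3 M mapped reads, and replicate 05 of IFNg at 72 h at 7.50, against 8.81 to 9.46, with 1.29 M mapped reads. IFNg at 24 h replicate 07 was at 8.91 (others 9.23 to 9.53, 1.21 M mapped reads) and CCL7 at 4 h replicate 06 at 6.09 (7.09 to 7.43, 1.01 M). IL10 at 72 h replicate 05 was at 6.17 (7.12 to 7.30), LiA at 24 h replicate 09 at 6.20 (6.86 to 7.27), and TNFa with PGE2 at 72 h replicate 08 at 5.96 (6.86 to 7.58). LPS_lo with IC at 72 h replicate 05 was at 8.55 (8.78 to 8.93) and LPS_lo with eotaxin at 72 h replicate 07 at 7.96 (8.74 to 8.93). TGFb at 24 h replicate 08 was the 1 well that was high, at 7.48 (6.93 to 7.18). The 10 wells had 1.01 to 11.3 M mapped reads, and the part of depth in their values was not tested.

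Differences between 2 effects passed the test in limma for 9 values, all on the log2 scale. The effect at 72 h was smaller than at 24 h for Tap2 with LPS_hi (-1.48) and for Tapbp (-1.69) and Nlrc5 (-1.95) with PolyIC. The effect of IFNg at 72 h was smaller with LPS_lo than alone for Tap1 (-2.26), B2m (-2.07), H2-K1 (-1.97), Psmb10 (-1.79), Psmb8 (-1.52) and H2-D1 (-1.11).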

How the results depend on the processing

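Of 443 counts of members called over 35 alternatives, 382 stayed within 1.5 times the reported count in the same direction, 40 rose past it, 19 fell below it and 2 reversed; of 1996 values of the 191 called member effects, 1925 stayed called, 71 lost the call and 0 changed sign. The cause was not tested in any case. A minimum log2 fold change of 1 left 1 member for TNFa at 24 h, 0 for IL4, 0 for resveratrol, 1 for P3C at 72 h, 1 for LPS in mice and 2 for age. A pseudocount of 5 gave 1 for IFNg against IFNa, 2 for resveratrol with LPS_lo, 5 for IFNg added to LPS_lo and 2 for the LPS_hi effect over time. Median ratio scaling gave 2 for P3C at 24 h, 1 for IL4, 1 for GMCSF, 2 for resveratrol, 1 for LPS_hi against LPS_lo and 1 for the IFNg effect over time; it moved the median member by 0.45 (log2) for LPS_hi at 4 h against the chemokines, by 0.27 for P3C and by 0.21 for LPS_hi at 24 h. A filter at 5 CPM in 79 cultures gave 1 for IL10 added to LPS_lo. With plate as covariate the counts were 1 for P3C at 24 h, 1 for IL4, 2 for resveratrol, 1 for IFNg against IFNb, 5 for P3C at 72 h, 3 for TNFa with P3C and PGE2, 5 for IFNg added to LPS_lo, 1 for IL10 added, 3 for the IFNg effect over time and, reversed, 1 higher for the LPS_hi effect over time. With library pool they were 1 for P3C at 24 h, 5 for TNFa, 1 for IL4, 2 for GMCSF, 2 for resveratrol, 1 for IFNg against IFNb, 1 for IFNg against IFNa, 0 for resveratrol with LPS_lo, 5 for TNFa with P3C and PGE2, 2 for the IFNg and 1 for the IFNb effect over time and, reversed, 3 higher for the LPS_hi effect. Without cultures under 2 M reads they were 1 for P3C at 24 h, 1 for TNFa, 1 for GMCSF, 0 for resveratrol, 2 for resveratrol with LPS_lo and 1 for the IC effect over time. In fits of the compared groups alone they were 1 each for P3C, IL10, GMCSF and TGFb at 24 h, 3 for IFNg against IFNb, 2 for IFNg against IFNa, 2 for resveratrol with LPS_lo, 4 for IC at 72 h, 0 for TNFa with P3C and PGE2, 5 for IFNg added to LPS_lo, 2 for IL10 added and 1 for the IC effect over time. For age, the fit without the block called 3 and the first block alone 2. Leaving out 1 sample at a time gave 9 to 10 for IFNb at 72 h, 0 for the IFNb effect over time, 0 to 1 for IL10 added to LPS_lo (1 without replicate 03 of LPS_lo with IL10) and 3 to 4 for LPS in mice (4 without LPS replicate 03). Left out after seeing the data, IC_24h replicate 05 gave 10 for IC and 2 for its effect over time, IFNg_72h replicate 05 gave 10 for IFNg, 0 for its effect over time and 6 for IFNg with LPS_lo, IC_72h replicate 06 gave 7 and 1, and replicates 08 and 13 of 22 months gave 7 each. No paired analysis was possible because replicate numbers were given in accession order and pair no samples. Depth limits Nlrc5 most: a level of 5 CPM is 5 reads in the shallowest culture.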

Other observations

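1 culture at 72 h was labelled LPS_hi but with the dose of LPS_lo (0.00001 µg/µl) and entered no comparison. Its mean of log2(CPM + 1) over the 10 genes was 8.05, with H2-K1 at 2930 CPM, B2m at 4549, Tap1 at 83.9, Tapbp at 4343, Nlrc5 at 62.7 and Psmb9 at 16.7. In the 11 LPS_lo wells of 72 h the same mean was 8.68 ± 0.18 (SD), and in the 13 LPS_hi wells 8.2 ± 0.35 (SD).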
